A study of Mus musculus with 6 samples.

Results

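Heat shock proteins and chaperones were examined as a set of 44 genes, chosen by symbol from the 55536 genes of the count table, in thymocytes of mice with and without the alpha chain of the interleukin-3 receptor. The members are the HSP70, HSP90 and HSP40 (J-domain) families, the cytosolic chaperonin TRiC, their cochaperones and 2 heat shock transcription factors. Messenger RNA of thymocytes (T cell precursors in the thymus) was sequenced from 6 mice at steady state. The wildtype group (WT) held 3 Il3ra+/+ mice and the other group (labelled knockout) 3 Il3ra-/- mice, with 1 library per mouse. The labels name no age, sex or strain of the mice and do not describe the deleted allele. Total counts per library were 55747682 to 82684219, and 43 of the 44 members had enough counts to be tested among 18690 genes. The remaining member was the small heat shock protein Hspb1.

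Chaperones bind unfolded stretches of other proteins and help them fold, assemble or reach the protease. HSP70 proteins work in cycles with J-domain partners and nucleotide exchange factors, HSP90 proteins finish the folding of kinases and receptors with their own cochaperones, and the TRiC ring folds actin and tubulin. In the cytosol, heat or unfolded proteins activate the transcription factor HSF1, which binds heat shock elements and induces a group of these genes. The endoplasmic reticulum and the mitochondria have chaperones of their own, and those of the endoplasmic reticulum are under separate control. The mitochondrial members Hspd1 and Hspe1 hold heat shock elements, as given below. In T cells, heat shock genes are also known to respond to activation.

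The elements through which the heat shock and ER stress groups are known to be controlled are shown for members in whose promoter a match was found, Hspb1 included although it was hardly detected. Promoter sequence (250 bases before the annotated start, RefSeq, GRCm38.p6) was found for 36 of the 44 members. It was searched for 2 neighbouring heat shock units, written GAANNTTC or TTCNNGAA; each of these reads the same on both strands, and the forms can overlap in a longer element. The first sequence is the whole Hspa1a window (chr17:34972157-34972406, minus strand), and the others are stretches of 30 bases, with the element in capitals.
Hspa1a: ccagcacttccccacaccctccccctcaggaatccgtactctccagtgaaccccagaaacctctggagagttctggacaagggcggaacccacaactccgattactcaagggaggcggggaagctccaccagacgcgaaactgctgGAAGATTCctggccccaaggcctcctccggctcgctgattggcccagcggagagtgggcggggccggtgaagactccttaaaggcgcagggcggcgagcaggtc
Hspa1b: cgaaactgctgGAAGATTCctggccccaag
Hsph1: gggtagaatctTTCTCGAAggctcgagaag
Dnaja1: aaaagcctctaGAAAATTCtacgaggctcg
Dnajb4: gttcgttcgttcgctgTTCTAGAAagtaca
Hspb1: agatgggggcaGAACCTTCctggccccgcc
Hspe1: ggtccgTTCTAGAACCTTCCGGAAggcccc
The stretches lie at chr17:34959324-34959353 for Hspa1b, chr5:149636351-149636380 for Hsph1, chr4:40722333-40722362 for Dnaja1, chr3:152193846-152193875 for Dnajb4, chr5:135887811-135887840 for Hspb1 and chr1:55088053-55088082 for Hspe1. The strand is plus for Dnaja1, Hspb1 and Hspe1 and minus for the others. The windows of Hspa1a and Hspa1b were identical at 247 of 250 bases. An element of either form was found in 6 of the 10 heat-inducible members with a window, in 6 of the 26 other members and in 14.5% of all 27025 genes in the promoter table. A run of 3 or more units was found in 0.514% of all genes and in Hspd1, Hspe1 and Dnajb6 among the members. The Hspe1 stretch, which is also in a window of its neighbour Hspd1, holds 4 units in a row. Of 5 members of the endoplasmic reticulum with a window, 0 held a heat shock element and 3 (Hspa5, Hsp90b1 and Dnajc3) held, on either strand, the ER stress element (CCAAT and CCACG with 9 bases between them), which was found in 0.13% of all genes.
Hspa5: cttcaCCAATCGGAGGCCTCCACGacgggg
Hsp90b1: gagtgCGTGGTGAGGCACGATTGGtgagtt
Dnajc3: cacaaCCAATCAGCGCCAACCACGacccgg
These stretches lie at chr2:34772020-34772049 (plus), chr10:86705527-86705556 (minus) and chr14:118937822-118937851 (plus), and the letters are a description of the window, not evidence of binding.

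Il3ra, the targeted gene, does not check the labels. It had 7.80, 6.51 and 6.11 CPM (read counts scaled to the TMM-adjusted library size) in WT replicates 1 to 3 and 7.95, 8.02 and 7.39 CPM in labelled knockout replicates 1 to 3, so directions below are those of the libraries labelled knockout. In both genotypes replicate 1 differed from the others in sex-linked transcripts, with Xist at 88078 and 128236 counts against 8 to 57 in the other 4 libraries. Thymocyte markers (Cd3d, Cd4, Cd8a, Rag1, Ptcra and 7 others) were all detected, with summed levels of 14468 to 16363 CPM in WT and 12939 to 13771 CPM in the labelled knockout. The common biological coefficient of variation between mice was 18.7%.

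By edgeR's quasi-likelihood test 0 members passed a Benjamini-Hochberg adjusted p of 0.05 over all genes, and 0.091% of all tested genes did. At an unadjusted p under 0.05 stood 4 of the 43 members (9.3%, against 14.6% of all tested genes). These were Hspa1a, Hspa1b and Hsf1 on the lower side, where 6.6% of all tested genes stood, and Hspa9 on the higher side, where 8.01% did. By DESeq2, Hspa1a and Hspa1b (2 members) passed the adjusted threshold on the lower side, where 1.17% of all tested genes did, and by limma-voom 0 members and 0.0749% of genes did. The genotypes did not overlap in 7 members (16.3%, against 20.3% of all tested genes), which adds Hspa14, Dnajc2 and Cct5 on the higher side. By direction these were 4 members higher and 3 lower, beside 10.9% and 9.38% of all tested genes. The median log2 fold of the 43 members was -0.02, beside 0.01 over all tested genes. Together the members took 0.752% to 1.18% of the counts of a library.

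Heat-inducible cytosolic genes, the other cytosolic chaperones and those of the organelles are described in turn, since their medians and their spread were not alike; the differences between groups of genes were not tested. The 12 genes taken as heat-inducible and cytosolic (Hspa1a, Hspa1b, Hspa8, Hspa4l, Hsph1, Hsp90aa1, Hspb1, Dnaja1, Dnajb1, Dnajb4, Bag3 and Chordc1) had a median log2 fold of -0.35 over the 11 tested, 10 of them fitted lower and 1 higher in the labelled knockout. The median was 0.06 for 6 TRiC subunits, 0.03 for 6 members of the endoplasmic reticulum and 0.08 for 4 mitochondrial members. The summed level of the heat-inducible genes was 2611, 4956 and 4688 CPM in WT replicates 1 to 3 and 3532, 2816 and 3041 CPM in labelled knockout replicates 1 to 3. Most of this sum was Hspa8, with 1651, 2914 and 2871 CPM in WT and 2203, 1663 and 1827 CPM in the labelled knockout. WT replicates 2 and 3 had the highest sums, and WT replicate 1 the lowest of all 6 libraries. The members of the endoplasmic reticulum summed to 624, 692 and 791 CPM in WT and 733, 709 and 777 CPM in the labelled knockout, and the mitochondrial members to 333, 421 and 426 CPM and 442, 389 and 435 CPM. Both of these sums overlapped between the genotypes. In bulk RNA, fewer cells that express a gene and less RNA per cell cannot be told apart.

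**Figure D1:**
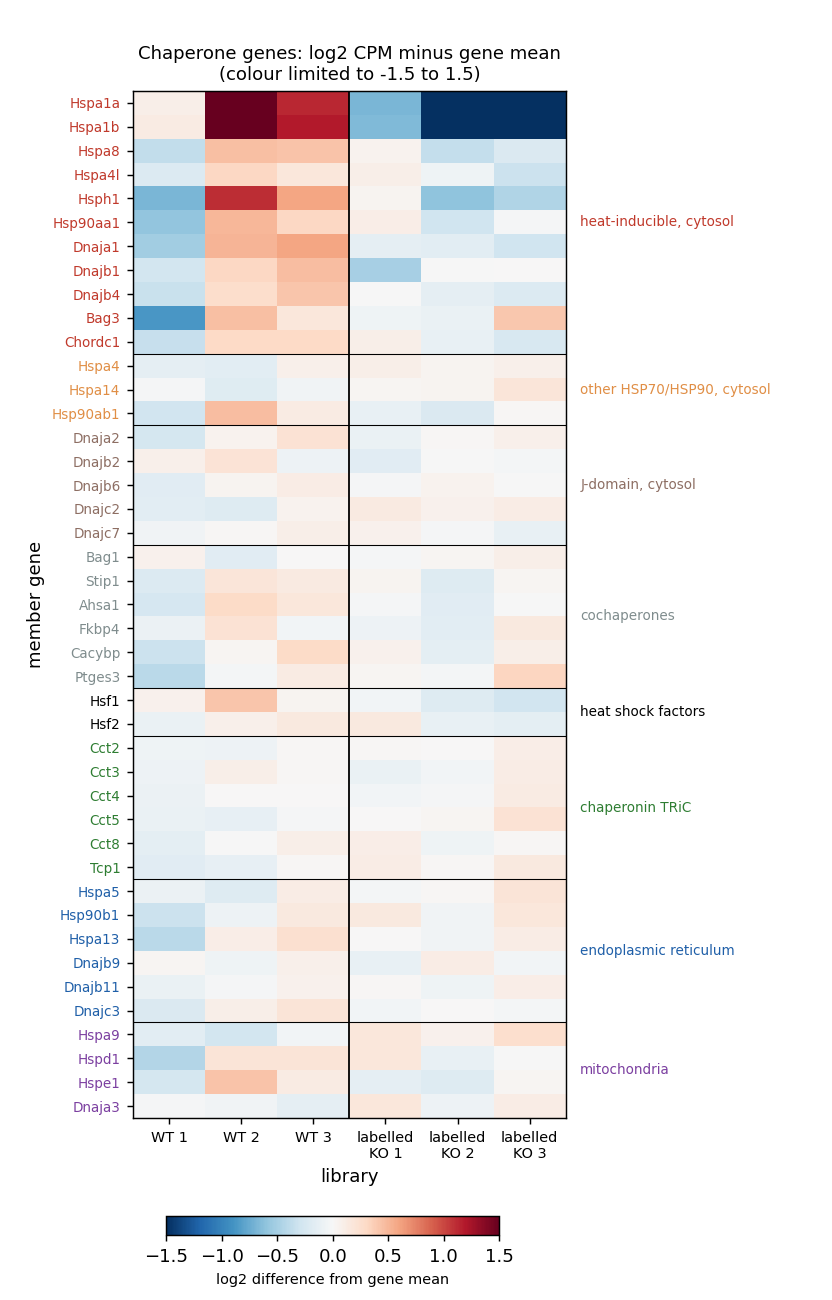
Each row is 1 of the 43 tested members and each column a library. The colour is log2 CPM minus the mean of that gene over the 6 libraries. Heat-inducible cytosolic genes at the top are highest in WT replicates 2 and 3, apart from Bag3 with 6.38 CPM in labelled knockout replicate 3, while most rows of the TRiC and endoplasmic reticulum groups are paler.

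The inducible HSP70 genes Hspa1a and Hspa1b had the largest differences between genotypes of all members. They are neighbouring genes on chromosome 17 (Hspa1a, ENSMUSG00000091971, 34969190 to 34972156; Hspa1b, ENSMUSG00000090877, 34956436 to 34959238; minus strand, GRCm38), 9951 bases apart, and make the same kind of protein. Hspa1a had 5.57, 49.0 and 11.4 CPM in WT replicates 1 to 3 and 3.24, 1.54 and 1.31 CPM in labelled knockout replicates 1 to 3. Every WT library was above every labelled knockout library, and WT replicate 2 was far above the rest. Hspa1b had 8.27, 77.8 and 17.3 CPM in WT and 4.79, 2.0 and 1.77 CPM in the labelled knockout, in the same order of libraries. The fitted levels were 10.9-fold higher in WT for Hspa1a (95% interval 1.43 to 83.7; edgeR's adjusted p = 0.29) and 12.2-fold higher for Hspa1b (1.39 to 107; adjusted p = 0.295), so neither passed edgeR's test over all genes. DESeq2 gave folds of 10.9 and 12.1 with adjusted p-values of 0.0136 and 0.013. The size rests on WT replicate 2: without it the folds were 4.20 and 4.49 (edgeR's adjusted p = 0.634 for each). The transcripts of these genes share 58.8% and 62.3% of their 50-base windows, so reads may not be assignable to 1 copy, and the model Gm20481 overlaps Hspa1a. With both summed as 1 gene the fold was 11.6 (edgeR's adjusted p = 0.294).

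The other heat-inducible genes had smaller differences and overlapped between the genotypes. Hsph1, a large HSP70-like exchange factor (chromosome 5, 149614287 to 149636376), had 65.6, 228 and 159.9 CPM in WT and 109, 69.4 and 77.1 CPM in the labelled knockout. WT replicate 1 was the lowest library of all, below every labelled knockout library, and the fitted fold was 0.563 (95% interval 0.22 to 1.44; edgeR's adjusted p = 0.533). Hspa8, the abundant HSC70 of all cells, had 1651, 2914 and 2871 CPM in WT and 2203, 1663 and 1827 CPM in the labelled knockout, a fold of 0.766 (0.558 to 1.05; edgeR's adjusted p = 0.422). Again WT replicate 1 was the lowest of the 6 libraries. Dnaja1, a J-domain partner of HSP70, had 230.4, 469.8 and 498 CPM in WT against 299, 296 and 268 CPM, and Hsp90aa1, the inducible HSP90, had 378, 805 and 705 CPM against 608, 464 and 563 CPM. The folds of the remaining tested genes of this group, namely Hspa4l, Dnajb1, Dnajb4, Bag3 and Chordc1, lay between 0.783 (Dnajb1) and 1.06 (Bag3). Bag3, an exchange factor that steers clients to autophagy, was the group's only tested gene fitted higher in the labelled knockout, at 2.62, 6.58 and 5.42 CPM in WT and 4.59, 4.50 and 6.38 CPM in the labelled knockout. Hspb1 was close to absent, with 10, 16 and 2 counts in WT and 2, 3 and 3 counts in the labelled knockout, where 3 counts are 0.0357 to 0.0519 CPM.

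**Figure D2:**
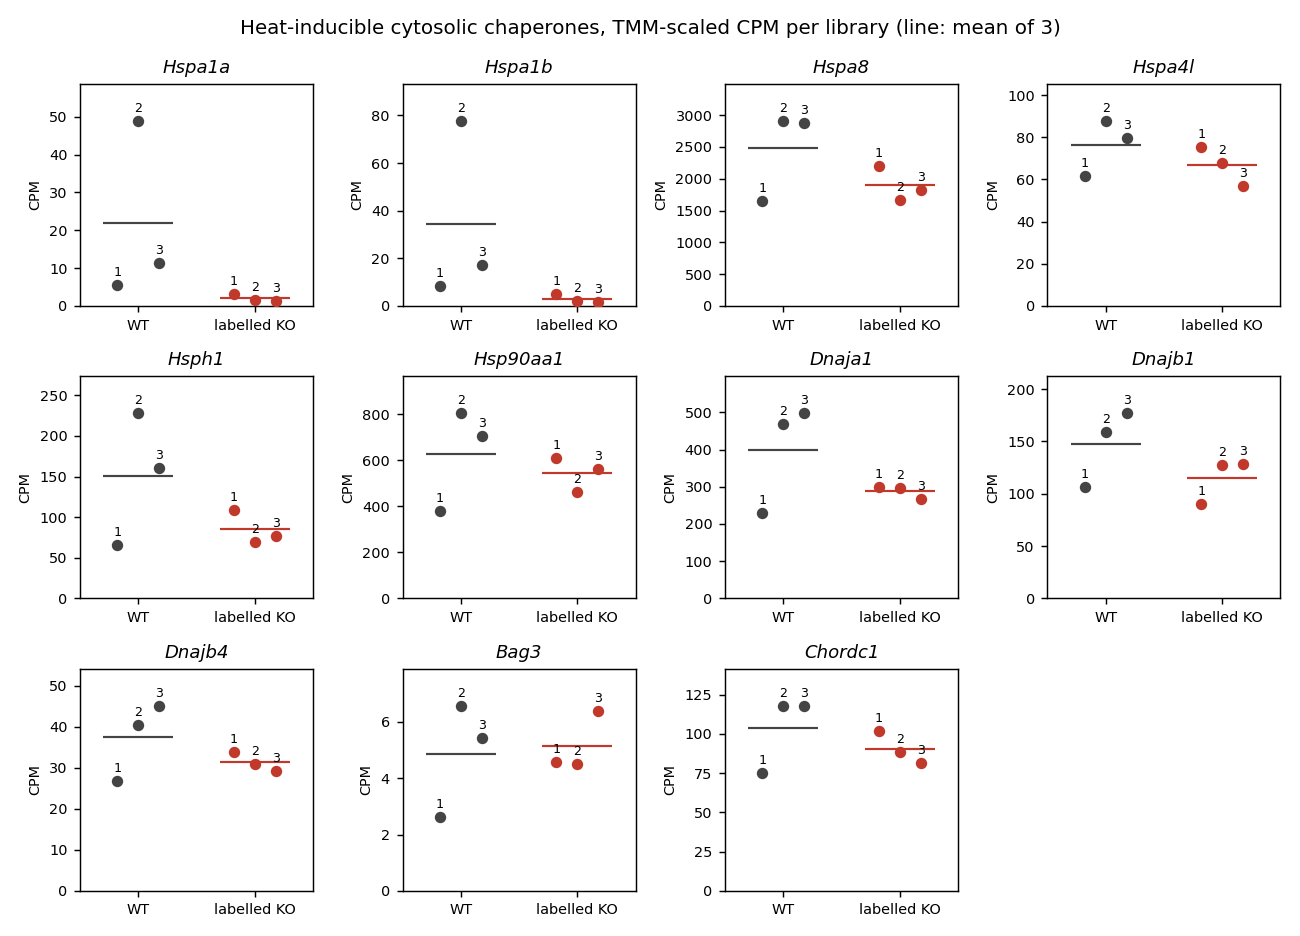
Each panel shows 1 heat-inducible gene, with TMM-scaled CPM on an axis from 0 and each library as a point numbered by its replicate. Lines are means of 3 libraries. WT replicate 1 is the lowest WT point in all 11 panels, and the genotypes are apart in Hspa1a and Hspa1b.

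Wildtype libraries differed widely in most of these genes. The highest WT library was at least 1.5 times the lowest in 10 of the 11 tested heat-inducible genes, from 1.58-fold in Chordc1 to 9.41-fold in Hspa1b, with 8.79-fold in Hspa1a, 3.47-fold in Hsph1, 2.51-fold in Bag3, 2.16-fold in Dnaja1 and 2.13-fold in Hsp90aa1. Hspa4l, at 1.43-fold, was just short of that ratio. The same ratio was reached by 5108 of 18690 tested genes (27.3%). With a mean of at least 10 CPM, which leaves out Bag3 and Dnajb2, it was reached by 14 of 41 members (34.1%). At that level 412 of 9209 tested genes (4.47%) reached it. Among the labelled knockout libraries 3 of the 11 genes reached it, Hspa1a, Hspa1b and Hsph1, beside 31.3% of all tested genes. That share covers genes at all levels, and the share at 10 CPM or more was not computed for the labelled knockout. WT replicate 1 was the lowest WT library in 11 of 11 heat-inducible genes and in 31 of all 43 members (72.1%), 5 of 6 cochaperones, 4 of 6 TRiC subunits and 4 of 6 members of the endoplasmic reticulum among them, against 35.6% of all tested genes. In the other members the WT ratio of 1.5 was reached by Hsp90ab1 (1.69), Cacybp (1.53), Hspa13 (1.57), Hspd1 (1.55) and Hspe1 (1.61), and by 0 of 6 TRiC subunits. Over the 6 libraries, each heat-inducible gene had a Spearman correlation of 0.37 (Bag3) to 0.83 (Hspa4l) with the mean of the others. These libraries differ in depth and are shared by all genes. The mean for Hspa1a includes its copy Hspa1b and the reverse, and genes outside the group were not compared in this way.

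**Figure D3:**
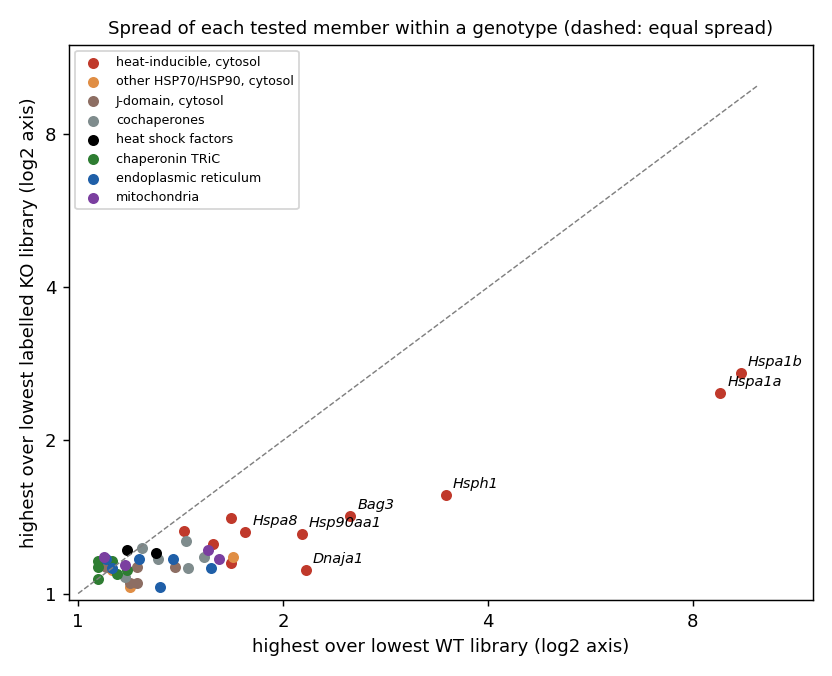
Points are the 43 tested members. The horizontal axis is the highest over the lowest WT library and the vertical axis the same ratio among labelled knockout libraries, both on log2 axes, with the dashed line at equal spread. The points farthest to the right are heat-inducible genes, up to 9.41-fold in WT for Hspa1b against 2.71-fold in the labelled knockout, while Hspa4l (1.43) and Chordc1 (1.58) lie among other members such as Hsp90ab1 (1.69) and Hspe1 (1.61).

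The members were also compared within the libraries alike in Xist. Between the Xist-high libraries, replicate 1 of each genotype, the labelled knockout was the higher one in 8 of 11 heat-inducible genes, beside 49.7% of all tested genes, with Hspa1a, Hspa1b and Dnajb1 as the exceptions. The same held for 35 of all 43 members (81.4%), with 5 of 6 TRiC subunits, 5 of 6 members of the endoplasmic reticulum and 4 of 4 mitochondrial members. Among the Xist-low libraries, replicates 2 and 3, both labelled knockout libraries lay below both WT libraries in 10 of 11 genes, beside 29% of all tested genes, and Bag3 was the exception. Among all 43 members 19 (44.2%) lay so. Leaving out WT replicate 1, the lowest WT library in all 11 genes, raises the WT mean and narrows the WT spread by construction. Labelled knockout replicate 1 was the highest of its genotype in the tested genes of the group, Dnajb1 and Bag3 excepted. Leaving it out lowers the labelled knockout mean where it was highest. The count in replicates 2 and 3 above and the following values thus describe how far the comparison rests on replicates 1. They are no separate support. With both replicates numbered 1 left out, 6 members had an adjusted p under 0.05 in edgeR over 19127 genes, all lower in the labelled knockout and all in the heat-inducible group, where 1.92% of tested genes passed on that side. These were Hsph1 (fold 0.378, edgeR's adjusted p = 0.0145), Dnaja1 (0.583, 0.0151), Hspa8 (0.603, 0.0328), Chordc1 (0.718, 0.0368), Dnajb4 (0.701, 0.0371) and Hsp90aa1 (0.68, 0.047). Of the 32 tested members outside the group 0 passed in that fit. Hspa1a and Hspa1b had folds of 0.0474 and 0.0398 there and did not pass (edgeR's adjusted p = 0.187 for each). Without WT replicate 1 alone, Dnaja1 passed (fold 0.595, edgeR's adjusted p = 0.0453), where 0.0463% of tested genes passed on the lower side. The members at an unadjusted p under 0.05 numbered 14 without both replicates 1, beside 27.2% of all tested genes, and 15 without WT replicate 1, beside 17.5%. The difference between the Xist-high and the Xist-low libraries was not tested, since each genotype has 1 Xist-high library.

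Other measures of the libraries are given beside these values. The 14 immediate early genes, which respond to cell handling and to signals, summed to 983 to 1110.4 CPM in WT and 833 to 999 CPM in the labelled knockout. Of these genes 4 were lowest among the WT libraries in replicate 1 (Fos, Fosb, Dusp1 and Klf6), and the other 10 were highest there, Jun, Junb and Egr1 included. The 5 tested erythroid markers had fitted log2 folds of -0.92 to -0.57, none with edgeR's unadjusted p below 0.05. All 5 were lowest among the WT libraries in replicate 1. The erythroid list summed to 9.09, 57.6 and 40.8 CPM in WT replicates 1 to 3. In labelled knockout replicates 1 to 3 the sums were 3.37, 23 and 34.2 CPM, with replicate 1 the lowest of all libraries. All 15 cell cycle genes were fitted higher in the labelled knockout, each at edgeR's unadjusted p under 0.05, beside 8.01% of all tested genes. Of these 15 genes 0 passed edgeR's adjusted threshold. Their sums were 2928 to 3674 CPM in WT and 3846 to 5192 CPM in the labelled knockout. The 6 neutrophil markers summed to 33.1 to 104 CPM in WT and to 73.1, 35.7 and 416 CPM in labelled knockout replicates 1 to 3. The part of these measures in the values of the members was not tested.

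The factors that control the response were next compared. Hsf1, the main heat shock transcription factor (chromosome 15, 76477422 to 76501913, plus strand), had 69.1, 87.9 and 67.6 CPM in WT and 64.3, 57.6 and 53.8 CPM in the labelled knockout. All WT libraries were above all labelled knockout libraries, by a small margin between WT replicate 3 and labelled knockout replicate 1. Its fold was 0.782 (95% interval 0.651 to 0.939; unadjusted p = 0.0128 and adjusted p = 0.228 by edgeR's quasi-likelihood test). For Hsf1, WT replicate 1 was not the lowest WT library, but it lay close to WT replicate 3, which was. Hsf2, a second factor active in development, had 17.7, 19.9 and 20.9 CPM in WT and 20.9, 17.6 and 17.1 CPM in the labelled knockout, with a fold of 0.951 (0.791 to 1.14).

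Constitutive chaperones of the cytosol had fitted folds of 0.85 to 1.15. Hsp90ab1, the constitutive HSP90 and with Hspa8 the most abundant member per length (578 and 509 CPM per kilobase of exon, means of 6 libraries), had 1402, 2363 and 1861 CPM in WT and 1578, 1471 and 1733 CPM in the labelled knockout. WT replicate 1 was again the lowest library. The fold of Hsp90ab1 was 0.85 (95% interval 0.656 to 1.10; edgeR's adjusted p = 0.556), and 0.755 without WT replicate 1 (edgeR's unadjusted p = 0.0144, adjusted p = 0.184). Hspa4, an exchange factor of the same family as Hsph1, had 179.8, 176 and 208 CPM in WT and 209, 203 and 208 CPM in the labelled knockout. Hspa14, which works at the ribosome, had 55.5, 49.6 and 54.1 CPM against 57.3, 57.7 and 63.5 CPM; its groups did not overlap, and its fold of 1.12 had an interval of 0.972 to 1.29. Dnajc2, its ribosome-bound J-domain partner, had 62.7, 60.9 and 72.1 CPM against 76.4, 72.7 and 75.2 CPM, also with no overlap (fold 1.15, 0.991 to 1.33; edgeR's adjusted p = 0.378). Both ribosome-bound partners were thus on the higher side in every labelled knockout library. The gene model Gm45902 overlaps Hspa14 on the same strand, and how reads in both were counted is not given. The other cytosolic J-domain genes, Dnaja2, Dnajb2, Dnajb6 and Dnajc7, had folds of 0.909 to 1.01. Dnajb2 had 9.59, 10.5 and 8.63 CPM in WT and 8.06, 9.10 and 8.91 CPM in the labelled knockout, and Dnajc7 had 199.8, 211 and 220.5 CPM and 218, 205 and 193 CPM, overlapping in each case.

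Cochaperones of HSP90 and HSP70 were close to equal between the genotypes. Stip1, which links HSP70 to HSP90, had 236, 310 and 298 CPM in WT and 281, 239 and 279 CPM in the labelled knockout (fold 0.946, 95% interval 0.784 to 1.14). Ahsa1, the activator of the HSP90 ATPase, had 84.4, 122 and 113 CPM and 98.9, 89.0 and 99.8 CPM. Ptges3, the HSP90 cochaperone p23, had 72.0, 93.2 and 104 CPM and 97.4, 93.5 and 119 CPM, the highest fold of the group at 1.15 (0.93 to 1.43). These 3 genes were lowest of all libraries in WT replicate 1. Bag1, an HSP70 exchange factor, had 68.3, 58.2 and 65.3 CPM and 64.3, 66.8 and 69.2 CPM. Fkbp4 and Cacybp had folds of 0.96 and 0.989.

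The TRiC subunits varied little between wildtype libraries. Their ratios of highest to lowest WT library were 1.07 to 1.18, and their folds were 0.99 to 1.14, with 5 of 6 fitted higher in the labelled knockout. Cct2 had 314, 312 and 333 CPM in WT and 331, 328 and 350.1 CPM in the labelled knockout. Cct5 had 239.9, 236 and 253 CPM in WT and 257, 261 and 297 CPM, with every labelled knockout library above every WT library (fold 1.12, 95% interval 0.961 to 1.30; edgeR's adjusted p = 0.487). Tcp1 had 147, 152 and 168 CPM and 179, 168 and 183 CPM, touching at 168 CPM (fold 1.14, 0.987 to 1.31). Tcp1 overlaps Mrpl18 and Acat3 on the other strand, and the strand setting of the counting is not given.

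In the endoplasmic reticulum, Hspa5 (BiP, the HSP70 of that compartment) had 187, 174 and 215 CPM in WT and 195, 202 and 228 CPM in the labelled knockout, a fold of 1.08 (95% interval 0.919 to 1.28). Hsp90b1, its HSP90, had 184, 218 and 255 CPM and 256, 222 and 259 CPM, a fold of 1.12 (0.925 to 1.36). Dnajc3, a J-domain partner of BiP, had 161, 199 and 213 CPM and 182, 187 and 183 CPM. These 3 genes, which hold the ER stress elements printed above, overlapped between genotypes. Hspa13, Dnajb9 and Dnajb11 had folds of 0.982 to 1.02.

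Of the mitochondrial members, Hspa9 (mortalin, the HSP70 of the matrix) had the smallest p of the whole set. It had 131, 121 and 142 CPM in WT and 164, 153 and 174 CPM in the labelled knockout, with all labelled knockout libraries above all WT libraries. The fold was 1.25 (95% interval 1.08 to 1.44), with an unadjusted p of 0.00614 and an adjusted p of 0.186 by edgeR's quasi-likelihood test. Hspd1 and Hspe1, the chaperonin HSP60 and its lid HSP10, lie head to head on chromosome 1 and overlap at their starts (Hspd1, 55077835 to 55088243, minus strand; Hspe1, 55088132 to 55091307, plus strand). The heat shock element printed above lies upstream of the annotated start of Hspe1, inside the Hspd1 gene. Hspd1 had 130.1, 201 and 201 CPM in WT and 199, 163 and 176 CPM in the labelled knockout, and Hspe1 had 45.6, 73.4 and 59.5 CPM and 49.9, 47.9 and 55.8 CPM. As for Hspa8 and Hsph1, WT replicate 1 was the lowest of the 6 libraries for each. Their folds were 1.01 (0.792 to 1.29) and 0.86 (0.682 to 1.08). Dnaja3, a J-domain partner of Hspa9, had 26.5, 25.7 and 24.4 CPM and 30, 25.4 and 28.9 CPM.

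**Figure D4:**
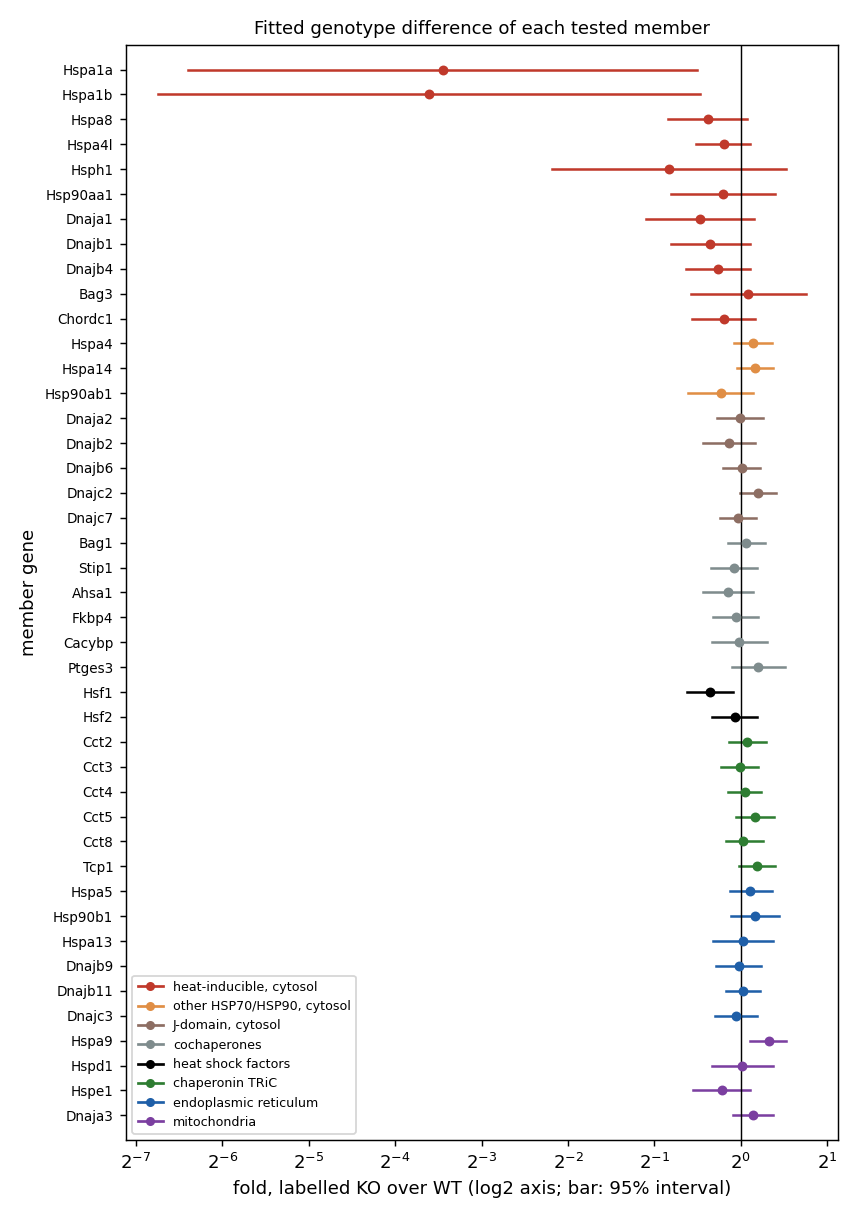
Points are fitted folds, labelled knockout over WT, on a log2 axis, and bars are 95% intervals from edgeR's quasi-likelihood fit, by gene and group. The intervals of Hspa1a and Hspa1b are wide and, with that of Hsf1, lie below 1, while that of Hspa9 lies above 1.

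Other genes of the same pathways passed in no case over all genes. Of 34 tested cytosolic folding genes outside the set 0 passed edgeR's adjusted threshold (median log2 fold 0.04). Beside 8.01% of all tested genes higher and 6.6% lower, 4 of these had an unadjusted p under 0.05, 1 higher and 3 lower. They include Dnajc9, a J-domain chaperone of histones, with a mean ± SD of 3 libraries of 82.6 ± 11.8 CPM in WT and 108 ± 10.4 CPM in the labelled knockout, Dnajb5 at 13.1 ± 1.21 and 9.66 ± 1.42 CPM, and the myosin chaperone Unc45a at 85.0 ± 8.17 and 69.6 ± 4.64 CPM. Of 11 other chaperonin and prefoldin genes 9 were fitted higher (median log2 fold 0.16), led by the TRiC subunit Cct7 at 180.1 ± 9.59 and 206 ± 11.5 CPM. In the unfolded protein response of the endoplasmic reticulum 21 genes were tested. Of these 1 stood higher at edgeR's unadjusted p under 0.05, beside 8.01% of all tested genes, and 3 lower, beside 6.6%. The latter were the stress sensor Eif2ak3 (PERK), at 62.7 ± 4.08 and 49.0 ± 2.09 CPM, the ubiquitin ligase Syvn1 at 91.3 ± 13.9 and 71.7 ± 4.24 CPM, and Ddit3 (CHOP) at 15 ± 0.605 and 12.2 ± 0.403 CPM, with adjusted p-values of 0.155 to 0.268 by edgeR. The 12 genes of mitochondrial protein quality had a median log2 fold of 0.09 with 0 at an unadjusted p under 0.05, led by the protease subunit Clpx at 31.4 ± 0.238 and 35.1 ± 1.33 CPM.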

How the data were processed

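Messenger RNA of thymocytes was measured in 6 libraries, 3 per genotype, made with a stranded poly(A) kit per the labels' protocols. The authors deposited raw counts per Ensembl gene, made with STAR 2.5.4b and featureCounts on GRCm38 per the submitters' processing notes. The sources used here do not give the annotation release, the strand setting or how reads mapping to several places were counted.

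All 55536 identifiers matched GENCODE M21, which gave symbols, positions and exon lengths. Genes were filtered with edgeR's filterByExpr and scaled by TMM. The genotype test was that of edgeR 4.0.16 in R 4.3.3 (robust glmQLFit and glmQLFTest) over all 18690 genes kept, with Benjamini-Hochberg adjustment and a threshold of 0.05; intervals are 95%. CPM values use TMM-adjusted library sizes. DESeq2 1.42.0, limma-voom (limma 3.58.1), other scalings and filters, a replicate block and left-out libraries were alternatives. The fits were tested on simulated data.

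The members, their groups by role and the lists were chosen with earlier results of these data known. Values in every library are given for up to 3 members of smallest p and the most abundant member of each group, the 3 of largest wildtype spread, Hspa1a, Hspa1b, Hsf1 and Hsf2; those of Dnaja1, Hsp90aa1, Bag3 and Hspb1 were added after their values were seen. Of other lists up to 3 genes of smallest p were named. No library was taken as a duplicate: pairs within a genotype gave a chi-square of 37.1 to 86.6 for each degree of freedom. No molecular identifiers were used, so a floor of 3 counts covers counting error only. Promoter sequence for Hspa8, Hsp90aa1, Hsp90ab1, Dnajc2, Hsf1, Cct4, Hspa13 and Hspa9 was not used here.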

Additional observations from a re-analysis of the deposited data

How the results depend on the processing

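The main limits are 3 mice per genotype, of which 1 was Xist-high in each, and counts that may not separate Hspa1a from Hspa1b in full. In addition, 1 wildtype library was the lowest of its genotype in all 11 tested heat-inducible genes. The number of members past the adjusted threshold was 0 in the main comparison, 2 by DESeq2, 0 to 1 when 1 library was left out, and 6 with both replicates numbered 1 left out. It was 0 by limma-voom, RLE scaling, upper-quartile scaling, both other filters, the replicate block and with Hspa1a and Hspa1b summed. The number at edgeR's unadjusted p under 0.05 was 4 (1 higher, 3 lower), beside 14.6% of all tested genes. It was 10 without the low-count filter, which lets all 44 members be tested, beside 11.5% of all genes in that fit. With both replicates numbered 1 left out it was 14 (1 higher, 13 lower), beside 27.2%. With 1 library left out it was 2 to 15. It was highest without WT replicate 1 (beside 17.5% of all tested genes) and 8 without WT replicate 3 (beside 12%). Without labelled knockout replicate 1 or 2 it was 2, beside 18.6% and 11.5% of all tested genes. The causes were not tested. The median log2 fold of the heat-inducible group stayed between -0.56 and -0.23 in all alternatives run. That of the mitochondrial group went from 0.08 to -0.06 with both replicates numbered 1 left out. Signs were followed only in the members chosen by rule for values in every library. Among these, the sign of Hspd1 turned without WT replicate 1 (log2 fold -0.17, range with 1 library left out -0.17 to 0.12). It also turned without labelled knockout replicate 1 (-0.06) and without both (-0.25). The sign of Dnajc3 turned without WT replicate 3 (0.03, range -0.16 to 0.03). That of Dnajc7 turned without labelled knockout replicate 3 (0.01, range -0.08 to 0.01). None of these 3 passed in any fit. Of 365 values under alternatives of the members chosen by that rule, 356 kept direction and side of the threshold. Another 5 turned sign and 4 passed the threshold. Dnaja1, Hsp90aa1, Chordc1 and Dnajb4, which passed in fits given above, are not in this count. The replicate numbers are not said to pair the mice. Deviations of same-numbered libraries from their group means correlated at -0.07, 0.11 and -0.12 over 13948 genes. Those of differently numbered libraries correlated at -0.13 to 0.17. Deviations from means of 3 libraries cannot exclude a shared litter or day. With the replicate number as a block 0 members passed, and 9 of all genes passed against 17 without the block. In the fit with the block 3 members had an unadjusted p under 0.05, beside 11.4% of all tested genes. Over all genes 602 passed by DESeq2, 840 without the low-count filter and 762 with both replicates numbered 1 left out.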
